A study of Homo sapiens with 6 samples.

Results

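Drug efflux transporters of the ATP-binding cassette (ABC) superfamily were followed through the knockdown of SNHG17, a long noncoding RNA, in A549 cells. A549 is an established human lung adenocarcinoma line. The 9 transporters were chosen by name: ABCB1, ABCB6, ABCC1, ABCC2, ABCC3, ABCC4, ABCC5, ABCC10 and ABCG2. They and the gene lists below were chosen with earlier results of these data known. All 9 were found among the 54261 genes of the count table. The compared groups were A549 cells given an siRNA against SNHG17 (si-SNHG17, 3 libraries) and A549 cells given a control siRNA (si-NC, 3 libraries). Both groups were cultured with 10% fetal bovine serum. The sources used here do not give the number and sequence of the siRNAs, the dose or the time after treatment, so an effect of lower SNHG17 and an effect of the siRNA on other transcripts cannot be told apart. Whether the numbered libraries of a group stem from separate cultures is not stated, so p-values reflect library-to-library spread that may be technical.

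ABC transporters use ATP hydrolysis to move substrates across membranes, and the members described here export drugs, drug conjugates, nucleotides or porphyrins. Their substrates overlap: ABCB1 (P-glycoprotein) and ABCG2 (breast cancer resistance protein) carry many unmodified drugs, while the ABCC members (multidrug resistance-associated proteins) also export glutathione, glucuronide and sulfate conjugates made by detoxifying enzymes. Several of these genes are known to be induced by NRF2, the product of NFE2L2, which A549 cells hold in an active state through a mutation of its inhibitor KEAP1. Messenger RNA was measured here, not protein or transport. In bulk RNA, fewer cells expressing a gene and less RNA per cell cannot be told apart.

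SNHG17 itself stood at 7.82, 8.39 and 11.3 CPM (read counts scaled to a common library size) after its knockdown and at 38.7, 36.2 and 51.4 CPM in the controls. Its level was 21.6% of the control (log2 fold change -2.21, standard error 0.167, adjusted p = 2.84e-07 by edgeR's quasi-likelihood test), and the groups did not overlap. Library totals ran from 8643076 to 12477214 counts. Of the control libraries, si-NC replicate 3 stood apart, with 8.40 to 8.85 chi-square units per degree of freedom from the other si-NC libraries against 2.25 between those. Mitochondrially encoded transcripts made up 7.80% ± 0.470 of control counts and 4.33% ± 0.187 after the knockdown (SD, n = 3). Of 7 epithelial markers all were detected, with KRT7 (0.27) and KRT19 (0.43) higher and KRT18 (-0.93), KRT8 (-0.75) and CDH1 (-0.53) lower. EPCAM was low, with 0.950 CPM in si-SNHG17 and 1.53 in si-NC. The epithelial list summed to 9737 to 10357 CPM in si-SNHG17 and 12130 to 14197 in si-NC, nearly all of it KRT7, KRT8 and KRT18. Of 8 alveolar and club cell markers, the surfactant genes SFTPA1 and SFTPB were at 0 in all libraries and LAMP3 was higher (2.10), the list summing to 128.3 to 147.2 against 106.0 to 119.4 CPM. Most of that sum was ABCA3, which did not pass the test (122.8 CPM in si-SNHG17 and 110.2 in si-NC). LAMP3 had 11.8 CPM in si-SNHG17 and 2.77 in si-NC. Of 8 immune markers 5 were at 0, PTPRC and CD3E among them, and the list's summed level was 18.6 to 21.8 CPM in si-SNHG17 and 31.3 to 43.7 in si-NC, nearly all of it CD14. The part of these markers in the results was not tested. With the 15 mitochondrially encoded genes taken out of the counts, the same 5 transporters passed the threshold as with them. Of 8 stromal and endothelial markers COL1A2 was at 0, and the list summed to 23.5 to 30.6 CPM in si-SNHG17 and 21.9 to 28.7 in si-NC. Nearly all of that was COL1A1, with 25.3 CPM in si-SNHG17 and 24.3 in si-NC.

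Promoter letters are shown first, because several transporters are known NRF2 targets. The RefSeq promoter windows (GRCh38.p14, 250 bases before to 50 after each annotated start) held 7 of the 9 members in 13 windows, and ABCC1 and ABCC3 were not among them. TGACNNNGC, the core of the antioxidant response element through which NRF2 acts, was searched on both strands. It occurred in 4 of the 13 windows (30.8%), against 13.3% of all 35116 windows. The difference was not tested, and 5 of the 13 windows belonged to ABCG2. These matches lay in ABCB6 (chr2:219219094-219219118, first matched base at -152 from the start), ABCC4 (chr13:95301584-95301608, at -149, on the opposite strand of the gene), ABCC10 (chr6:43427390-43427414, at -143) and 1 of 5 ABCG2 windows (chr4:88159273-88159297, at 2). That ABCG2 window overlapped no other, while some of the remaining ABCG2 windows overlapped each other. The match is in capitals and the strand is that of the gene, which is minus for ABCB6, ABCC4 and ABCG2 and plus for ABCC10.
ABCB6: tgggcacgTGACCAAGCcggctctg
ABCC4: ctcctcccGCCGCGTCAcccgtcgg
ABCC10: gttataaaTGACGTTGCactaaggg
ABCG2: agcgcttgTGACTGGGCaacctgtg

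GCGTG, the core of the xenobiotic response element of the dioxin receptor AHR, occurred in 7 of the 13 windows (53.8%) and in 36.5% of all windows, both strands being searched. Its 5 member genes were ABCB1, ABCC4, ABCC5, ABCC10 and ABCG2. Overlapping ABCG2 windows held the same matches, so some letters were counted more than once among the member windows. CCAAT occurred in 2 of 13 windows (15.4%, against 34.6% of all), in ABCB1 and ABCB6. The ABCC4 window was richest in G and C (79.7%), while that of ABCC2 had 45.0% and few CpG pairs (0.066 of the number its base composition gives, against a median of 0.579 over all windows). A match is a description of these letters and not a binding site, and no difference from all windows was tested.

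The 6-base sequence CTCTGT in the 3 prime UTR is shown because an earlier search of these data found its carriers lower after the knockdown, so the letters were chosen on these samples. In GENCODE release 29, which is annotated on GRCh38, 5861 mRNAs tested carried it in the UTR of their longest coding transcript, with a median log2 fold change of -0.02, and 5851 did not, with a median of 0.09. Carriers also had longer UTRs, with a median of 2311 against 635 bases. Of the tested mRNAs with a UTR found in this way, 50.04% had a copy. The rest of the 12136 mRNAs tested had no such UTR and were left out. Of all carriers 24.67% were lower and 20.37% higher, and of the mRNAs without a copy 15.38% were lower and 26.44% higher. Of the 9 transporters, 5 carried 1 copy each, of which 3 were lower and 2 (ABCC1 and ABCC2) did not pass the test. Any link of the site to the changes of the transporters was not tested. ABCB6 (lower), ABCC5 (higher), ABCC10 and ABCB1 had none. The 5 sites are shown with 12 bases of flanking sequence as follows, on the strand of the gene and with the 6 bases in capitals. The sites lay at chr16:16142729-16142758 (ABCC1), chr10:99852073-99852102 (ABCC2), chr17:50691496-50691525 (ABCC3), chr13:95020689-95020718 (ABCC4) and chr4:88091050-88091079 (ABCG2).
ABCC1: aaccgtgttggtCTCTGTgttcctggaaga
ABCC2: tttttttcactgCTCTGTagtctggcattg
ABCC3: ttatgaaatgacCTCTGTcctccctctgat
ABCC4: ggaaggctaaccCTCTGTtgactgtaagcc
ABCG2: tgatgtatttccCTCTGTtgctgttatgag

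Control A549 cells held very unequal amounts of the transporter mRNAs. Compared per transcript length, as CPM per kilobase of the longest GENCODE transcript, ABCC3 led in si-NC with 140.8 ± 8.21 (SD, n = 3). ABCC1 followed with 40.0 ± 7.93, ABCB6 with 34.9 ± 3.60, ABCG2 with 25.8 ± 1.54 and ABCC4 with 22.6 ± 2.90. Far below were ABCC5 with 4.17 ± 0.273, ABCC2 with 3.86 ± 1.54 and ABCC10 with 0.765 ± 0.223. By this scale the si-NC level of ABCC3 lay above that of 96.9% of the 13995 tested genes with a known length, and that of ABCC10 above 10.7%.

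Neighbours in this order were not all distinct. In si-NC, the ranges over libraries overlapped for ABCC1 and ABCB6, for ABCG2 and ABCC4, and for ABCC5 and ABCC2. In si-SNHG17, the lowest ABCC1 library (43.5 CPM per kilobase) was above the highest ABCB6 library (26.3), and the lowest ABCC5 library (5.10) was above the highest ABCC2 library (3.51). ABCG2, at 13.8 ± 0.310, lay just under ABCC4, at 14.8 ± 0.426, in si-SNHG17. With the median in place of the longest transcript length, ABCC4 and ABCG2 changed places in si-NC, as did ABCC2 and ABCC5.

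**Figure D1:**
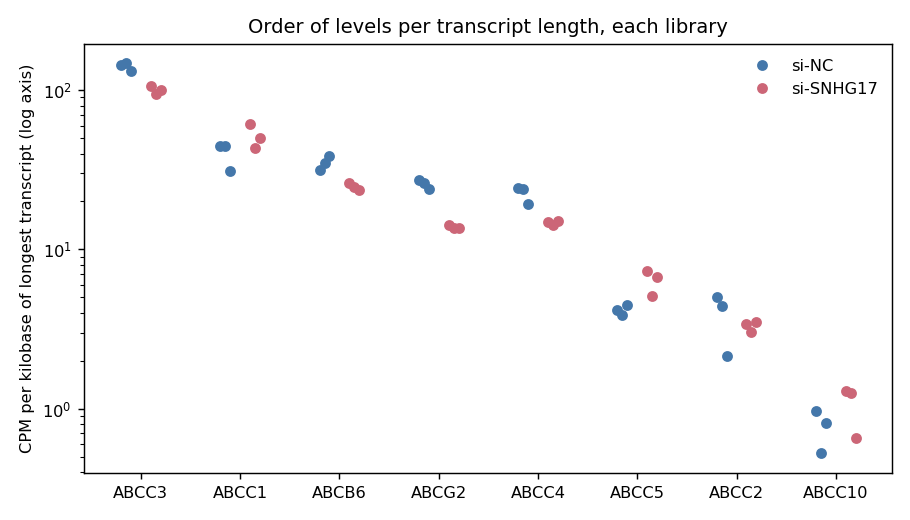
CPM per kilobase of the longest transcript (log axis) for the 8 transporters with enough counts to be tested, each point 1 library, si-NC in blue and si-SNHG17 in red. ABCC3 was highest in all 6 libraries, and ABCC1 stood clear of ABCB6 in the si-SNHG17 libraries but overlapped it in si-NC.

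ABCB1, the P-glycoprotein gene on chromosome 7 from 87503633 to 87713323, was barely counted. It had 0 counts in all 3 si-SNHG17 libraries and 0, 0 and 2 in the si-NC libraries. A count of 0 over the si-SNHG17 group allows up to 3 counts, or 0.0971 CPM (counting error only), so no fold is given. A row near 0 need not mean that the transcript was absent: ABCD3 and MSN, used by most cell types, had 0 and 3 counts over all 6 libraries.

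The place of the transporters among other genes is given as a description of the group means. ABCG2 lay above 80.9% of the 13995 genes per length in si-NC and above 68.5% in si-SNHG17, and ABCC4 above 78.7% and 70.1%. ABCB6 went from 85.7% to 80.3% and ABCC3, at the top in both groups, from 96.9% to 95.3%. ABCC5 went from 39.8% to 49.8%. For the transporters that did not pass the test below, the places were 87.4% and 90.3% for ABCC1, 37.96% and 34.54% for ABCC2, and 10.7% and 14.3% for ABCC10.

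The remaining 8 transporters passed the low-count filter, each with at least 27 counts in every library. Of these, 4 were lower in si-SNHG17 and 1 was higher at an adjusted p under 0.05 by edgeR. Across all 15614 genes tested, 19.6% were lower and 19.6% were higher, or 39.1% in either direction. Of the 12136 mRNAs tested, 43.3% were called in either direction, 2805 of them higher and 2444 lower. The groups did not overlap for 5 of the 8, 1 higher and 4 lower, against 49.4% of all genes tested (25.1% higher and 24.3% lower). The median log2 fold change was -0.35 over the 8 transporters and 0.01 over all genes. No fitted value of the 8 reached 2-fold. Without si-NC replicate 3, the library that stood apart, the 5 transporters past the threshold were past it in the same direction, and ABCC2 was then lower as well.

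**Figure D2:**
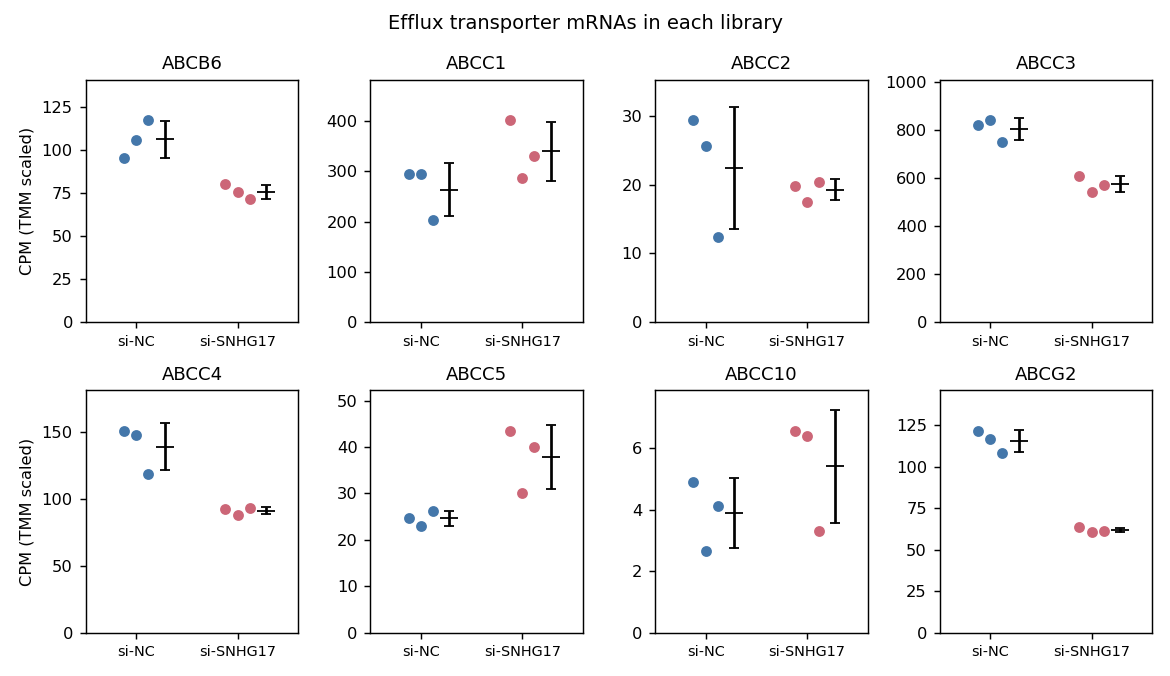
CPM with TMM-scaled library sizes for the 8 tested transporters (vertical axes from 0, a scale for each gene). Points are libraries, replicates 1 to 3 from left to right, and black bars show the mean and SD of each group. ABCB6, ABCC3, ABCC4 and ABCG2 were lower and ABCC5 was higher without overlap, while ABCC1, ABCC2 and ABCC10 overlapped.

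ABCG2, which exports many drugs as well as urate and porphyrins across apical membranes, fell most of the 8. The gene lies on chromosome 4 from 88090264 to 88231322 (GENCODE release 29, GRCh38, minus strand). Its levels were 63.4, 60.7 and 61.4 CPM after the knockdown, where the controls had 121.5, 116.7 and 107.9 CPM. The si-SNHG17 libraries were close together and all lay far under the lowest control. The mean fell from 115.3 ± 6.89 to 61.8 ± 1.39 CPM (SD, n = 3), 53.6% of the control level in the fit, with a log2 fold change of -0.90, a standard error of 0.0839 and an adjusted p of 1.98e-06 by edgeR. It carries TGACNNNGC in 1 of its promoter windows.

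ABCC4 exports cyclic nucleotides and prostaglandins besides nucleoside drugs. It lies on chromosome 13 from 95019829 to 95301475. It stood at 92.3, 88.1 and 93.0 CPM in si-SNHG17 and at 151.1, 148.2 and 118.8 CPM in si-NC, where replicate 3 was the lowest. The groups did not overlap. The fitted fall was 0.61 on the log2 scale, with a log2 fold change of -0.61, a standard error of 0.0967 and an adjusted p of 0.000202 by edgeR.

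ABCC3, a basolateral exporter of glucuronides and bile salts, is the most abundant of the set. It lies on chromosome 17 from 50634777 to 50692252. Its levels were 609.9, 543.5 and 569.9 CPM in si-SNHG17 and 821.1, 841.3 and 751.8 CPM in si-NC. Every si-SNHG17 library was under every control library. The log2 fold change was -0.49 (standard error 0.0766, adjusted p = 0.000198 by edgeR), which left 71.4% of the control level.

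ABCB6 belongs to the ABCB subfamily and carries porphyrins, with reports of it in mitochondrial, lysosomal and plasma membranes. It lies on chromosome 2 from 219209766 to 219219017, and another GENCODE gene on the same strand, AC068946.2, shares 2864 of its exon bases. It had 80.1, 75.5 and 71.5 CPM in si-SNHG17 and 95.5, 105.6 and 117.4 CPM in si-NC. The groups lay apart, with the controls more spread. Its log2 fold change was -0.49 (standard error 0.0940, adjusted p = 0.000959 by edgeR).

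ABCC5, an exporter of cyclic nucleotides and glutamate conjugates and of nucleotide analogues, rose. It lies on chromosome 3 from 183919934 to 184018015. It had 43.5, 30.2 and 40.0 CPM in si-SNHG17 and 24.7, 23.1 and 26.3 CPM in si-NC. The lowest si-SNHG17 library, replicate 2, was still above the highest control. The mean went from 24.7 ± 1.62 to 37.9 ± 6.89 CPM, a 1.53-fold rise (log2 fold change 0.61, standard error 0.135, adjusted p = 0.00261 by edgeR). The antisense gene ABCC5-AS1 shares no exon bases with it.

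ABCC1, the founding multidrug resistance-associated protein and an exporter of glutathione conjugates and leukotriene C4, lay at the edge of the threshold. It is on chromosome 16 from 15949577 to 16143074. Its libraries read 401.9, 286.7 and 330.4 CPM after the knockdown and 293.8, 294.2 and 203.5 CPM in the controls. The groups overlapped, since si-SNHG17 replicate 2 lay under both si-NC replicates 1 and 2. The log2 fold change was 0.36 with a 95% interval of 0.07 to 0.66, and edgeR gave an adjusted p of 0.0505. Over 15 alternatives the adjusted p of ABCC1 ran from 0.000155 to 0.249 and was under the threshold in 7, DESeq2 (0.0317) and the fit with a replicate block (0.0280) among them. Leaving out 1 library gave 0.21 at the lowest, without si-NC replicate 3 (adjusted p = 0.108), and 0.48 at the highest, when si-SNHG17 replicate 2 was dropped (adjusted p = 0.0193). It was 0.23 without si-SNHG17 replicate 1 (adjusted p = 0.249), and it passed without si-NC replicate 1 (0.0279) or si-NC replicate 2 (0.0371).

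ABCC2 and ABCC10 did not pass, and their intervals were wide. ABCC2, the apical exporter of bilirubin glucuronides and other conjugates, lies on chromosome 10 from 99782640 to 99852594. It had 19.8, 17.5 and 20.4 CPM in si-SNHG17 and 29.4, 25.5 and 12.4 CPM in si-NC. The si-NC libraries were far apart and enclosed the si-SNHG17 libraries. The log2 fold change was -0.22 with all libraries (95% interval -0.71 to 0.28, adjusted p = 0.489 by edgeR). Without si-NC replicate 3 it was -0.52 (adjusted p = 0.00301), and without si-NC replicate 1 it was 0.02 (adjusted p = 0.953).

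ABCC10, an exporter that includes taxanes among its substrates, is on chromosome 6 from 43427366 to 43450430 and shares 79 exon bases with DLK2 on the opposite strand. It had 63, 80 and 29 counts in si-SNHG17 and 43, 27 and 44 in si-NC, or 6.57, 6.39 and 3.30 CPM against 4.90, 2.66 and 4.12 CPM. The groups overlapped through si-SNHG17 replicate 3. The log2 fold change was 0.50 with a 95% interval of -0.11 to 1.12 (adjusted p = 0.185 by edgeR), so neither no change nor a doubling lies outside it. Without si-SNHG17 replicate 3 it was 0.75 (adjusted p = 0.0494). It was 0.29 at the lowest, over the fits that left out a library.

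**Figure D3:**
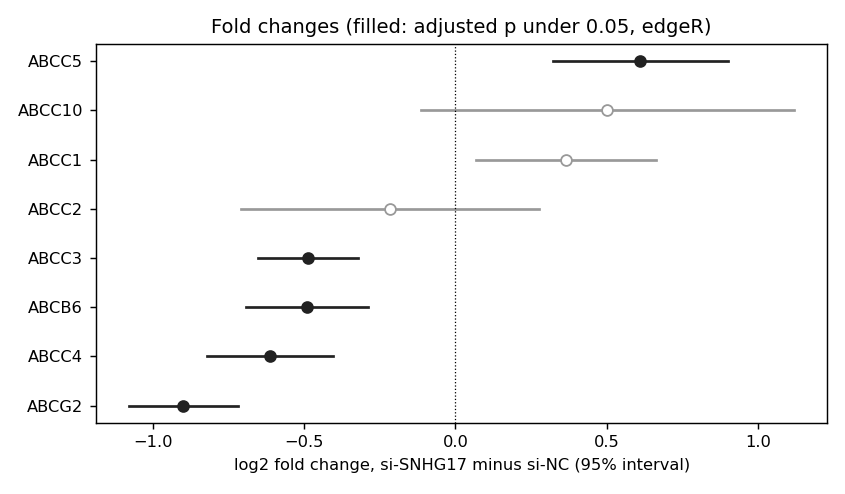
Log2 fold change of si-SNHG17 minus si-NC for the 8 tested transporters, with 95% intervals from the edgeR fit, filled where the adjusted p was under 0.05. ABCG2, ABCC4, ABCB6 and ABCC3 lie left of 0, ABCC5 lies right of 0, and the values of ABCC1, ABCC10 and ABCC2 did not pass.

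The makeup of the transporter mRNAs is given as a description, with no test. Summed per length over the 9 genes, the level was 251.7 to 285.4 CPM per kilobase in the si-NC libraries and 200.6 to 235.1 in the si-SNHG17 libraries. ABCC3 made up 51.6% ± 0.603 of that sum in si-NC and 46.5% ± 1.04 in si-SNHG17. ABCC1 made up 14.6% ± 2.01 in si-NC and 23.7% ± 2.13 in si-SNHG17. ABCG2 went from 9.45% ± 0.277 to 6.41% ± 0.370, and ABCC5 from 1.54% ± 0.206 to 2.95% ± 0.350. These shares rest on the length used. With median transcript lengths, ABCC3 made up 69.1% in si-NC and 62.3% in si-SNHG17, and ABCC1 12.9% and 21.0%. For ABCG2 the shares were then 3.06% and 2.08%, and for ABCC5 0.906% and 1.74%.

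The ratio of ABCC3 to ABCC1, per length, was 3.22, 3.30 and 4.26 in si-NC and 1.75, 2.19 and 1.99 in si-SNHG17. For ABCG2 to ABCC1 it was 0.609, 0.584 and 0.780 in si-NC and 0.232, 0.312 and 0.274 in si-SNHG17. ABCC4 to ABCC5 went from 5.87, 6.16 and 4.33 to 2.04, 2.80 and 2.23. None of the 3 ratios overlapped between groups. The pairs were picked after their values were seen, so this separation is no test of a difference.

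Of 39 other ABC genes 21 were tested, 4 were higher and 4 lower, with a median log2 fold change of 0.11. The called share, 38.1%, was close to the 39.1% of all genes tested. ABCA1, the cholesterol and phospholipid exporter, rose by 1.23 (adjusted p = 5.11e-06 by edgeR). TAP1, which carries peptides into the endoplasmic reticulum for MHC class I loading, rose by 0.91, and ABCB9, a lysosomal peptide transporter, rose by 0.72. ABCE1, a ribosome recycling ATPase that transports nothing, fell by 0.44. Without si-SNHG17 replicate 1 the lower genes numbered 2.

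The next list holds enzymes that make the conjugates and glutathione that ABCC proteins export. Of 37 genes 24 were tested, 12 were lower, 1 was higher and 11 did not pass, with a median of -0.29. The called share was 54.2%, against 39.1% of all genes (19.6% in each direction) and 43.3% of mRNAs, and the difference was not tested. Without si-SNHG17 replicate 3 none was higher by edgeR. GCLM, the modifier subunit of the enzyme that limits glutathione synthesis, went down from 69.2 ± 4.59 to 18.2 ± 4.23 CPM, with a log2 fold change of -1.93 and an edgeR adjusted p of 1.79e-07. GSS, which completes glutathione, fell from 159.7 ± 11.4 to 49.2 ± 2.05 CPM (-1.70). SULT1A1, a phenol sulfotransferase with close paralogs among which reads may be shared, was lower by the fit (-0.95), and MGST1, a microsomal glutathione transferase, fell (-0.53).

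Of 29 known regulators of efflux transporter transcription 23 were tested, 10 were higher and 2 lower, with a median of 0.22. The called share was 52.2%, against 39.1% of all genes (19.6% in each direction) and 43.3% of mRNAs, and the difference was not tested. The count of higher genes was 6 without si-SNHG17 replicate 1 and 6 without si-SNHG17 replicate 2. NFE2L2, which encodes NRF2, rose from 120.0 ± 5.14 to 188.4 ± 9.47 CPM (0.65 on the log2 scale, edgeR adjusted p = 1.84e-05). BACH1, which encodes a repressor that competes with NRF2 for antioxidant response elements, rose more, from 46.8 ± 1.43 to 125.3 ± 4.70 CPM (1.42, adjusted p = 2.76e-08). PPARG, a lipid-sensing nuclear receptor, rose by 0.50 and MYC fell by 0.47.

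Among regulators that did not pass, KEAP1 had a log2 fold change of -0.08 (95% interval -0.26 to 0.11). AHR had -0.02 (-0.32 to 0.28), with a sign that changed under other settings. The pregnane X receptor gene NR1I2, which induces ABCB1 and ABCC2 in liver and gut, had 0 counts in all 6 libraries. NR1I2 was therefore not tested, and as for ABCB1 such a row need not mean that the transcript was absent.

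Of 27 drug uptake carriers and exporters outside the ABC family 17 were tested, 4 were higher and 3 lower, with a median of -0.05. The called share of 41.2% was close to that of all genes (39.1%). SLC22A3, an organic cation transporter, fell from 79.5 ± 8.88 to 38.7 ± 2.18 CPM (-1.04 on the log2 scale, edgeR adjusted p = 3.63e-06). SLC29A1, the equilibrative nucleoside transporter that takes up gemcitabine and related drugs, fell (-0.46). The organic anion carriers SLCO2B1 (0.76) and SLCO1B3 (0.58) rose. Of 11 partners that hold transporters at the membrane or move them there, 8 were tested, 1 was higher and 3 lower, where 19.6% of all genes were called in each direction. RAB11FIP5, of recycling endosomes, rose (0.54) and the caveolar protein gene CAV1 fell (-0.34), while RAB11A (-0.24) and EZR (-0.19) passed in only 8 and 6 of 15 alternative fits. Leaving out replicate 1 or 2 of either group left 1 lower partner.

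Genes of porphyrin and haem metabolism, whose intermediates ABCB6 and ABCG2 carry, were lower in 6 cases and higher in 1 of 14, all tested, with a median of -0.25. Of all genes 19.6% were called in each direction, and the difference was not tested. FLVCR1, a plasma membrane exporter long assigned to haem, fell from 23.3 ± 1.72 to 9.89 ± 1.15 CPM (-1.23 on the log2 scale, edgeR adjusted p = 9.57e-06). CPOX, an enzyme of haem synthesis, fell by 0.49 and the haem transporter SLC48A1 fell by 0.41. HMOX1, which breaks haem down, rose from 39.7 ± 1.78 to 79.4 ± 3.23 CPM (1.00, adjusted p = 1.37e-06).

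**Figure D4:**
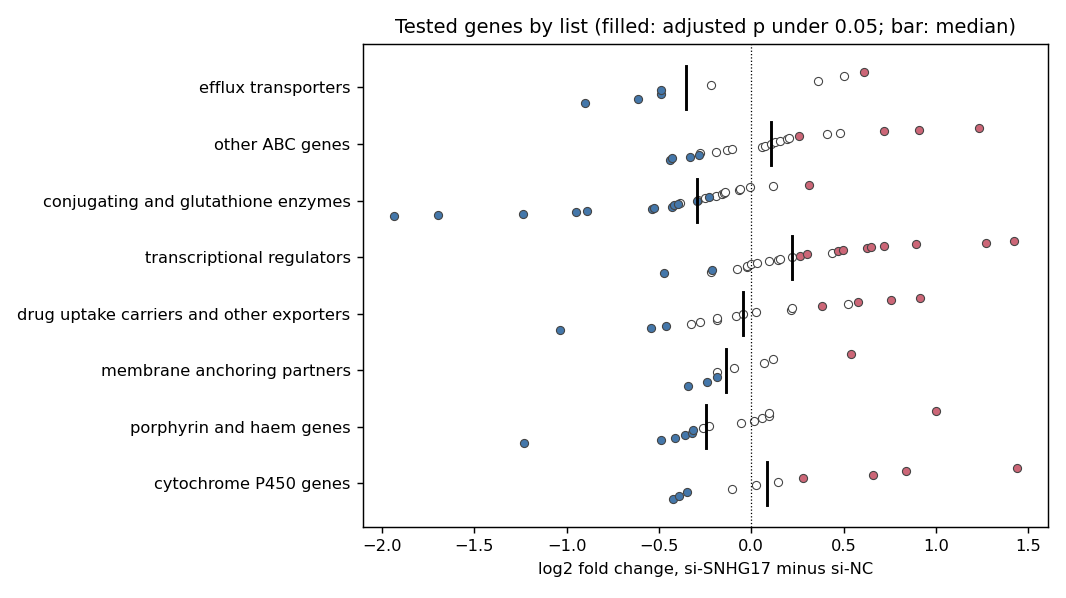
Log2 fold change of si-SNHG17 minus si-NC for each tested gene of the transporter set and the lists around it, 1 point a gene, filled red (higher) or blue (lower) where the adjusted p was under 0.05, with the list's median as a bar. The medians of the transporters (-0.35) and of the conjugating and glutathione enzymes (-0.29) lie left of 0, and that of the regulators (0.22) lies right of it.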

How the data were processed

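Values were raw read counts per gene, deposited without normalization. The genome build was GRCh38, per the submitters' processing notes; the aligner, counting tool, annotation and strand setting were not given in the sources used here. Libraries were made from Trizol-extracted total RNA with an Ion Total RNA-Seq kit for Proton sequencing, per the labels' protocols. The table has 54261 genes, of which 24851 had no read.

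Groups came from the sample titles. In R 4.3.3 with edgeR 4.0.16, genes passing filterByExpr were scaled by TMM (factors 0.975 to 1.02). They were then tested with glmQLFit and glmQLFTest, group being the only term, and Benjamini-Hochberg adjustment over 15614 genes (threshold 0.05). The fit was tested on simulated data. Standard errors are the log2 fold change over the root of F; intervals are 95%. CPM use scaled library sizes. A 0 allows up to 3 counts, 0.240 to 0.342 CPM per library. No pair of libraries was identical. Lengths and UTRs came from GENCODE 29, promoters from RefSeq. Transporters and lists were chosen with earlier results of these data known. Named were all transporters, SNHG17, up to 4 called genes with the smallest p in each list, and NFE2L2, KEAP1, AHR and NR1I2; 1 further gene of this rule is not reported here. Alternatives were 3 scalings, DESeq2 1.42.0, limma-voom (limma 3.58.1), 2 filters, a 2-fold requirement, a replicate block, median transcript length and leaving out each library.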

Additional observations from a re-analysis of the deposited data

How the results depend on the processing

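ABCG2, ABCC4, ABCC3 and ABCB6 were lower and ABCC5 was higher, past the threshold, in each of 15 alternatives, and SNHG17 ran from -2.37 to -2.04. Removing the 15 mitochondrially encoded genes was chosen after seeing the data and moved no transporter across the threshold. ABCC1 passed with library totals only (0.40 on the log2 scale, adjusted p = 0.0388), DESeq2 (0.36), no low-count filter (0.38) and the replicate block (0.37), so that 2 transporters were higher under each of these 4. Leaving out a library gave 1 to 2 higher and 4 to 5 lower transporters, with ABCC1 at 0.21 to 0.48, ABCC2 at -0.52 to 0.02 and ABCC10 at 0.29 to 0.75. ABCC2 was 0.021 without si-NC replicate 1. Requiring 2-fold left 697 genes higher and 768 lower, and 0 transporters in either direction, by construction.

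Over all genes, leaving out a library gave 4911 to 6601 past the threshold. The ranges for lists were 2 to 4 lower other ABC genes, and 0 to 1 higher and 9 to 13 lower conjugating enzymes. Regulators ran from 6 to 9 higher and 1 to 2 lower, and lower porphyrin and haem genes from 4 to 7. Lower membrane partners numbered 1 to 3 and higher cytochrome P450 genes 2 to 4. Lower regulators numbered 1 with library totals, no low-count filter or the replicate block, and lower membrane partners 1 with library totals or the replicate block. AHR, not past the threshold, was 0.011 with library totals, 0.0096 with limma-voom, 0.113 without si-NC replicate 1 and 0.036 without si-NC replicate 2, and leaving out a library gave -0.21 to 0.11. The causes were not tested. With the replicate block 5579 genes passed, and 5515 of these also passed unblocked. Same-numbered libraries had correlations of deviations of 0.07, -0.13 and -0.11, so the numbers were not taken to pair the libraries. Differently numbered libraries of opposite groups had correlations from -0.155 (si-SNHG17 2 with si-NC 1) to 0.232 (si-SNHG17 2 with si-NC 3). By median transcript length, ranks in si-NC became 4 for ABCC4, 5 for ABCG2, 6 for ABCC2 and 7 for ABCC5. The share of ABCC3 became 69.1% in si-NC and 62.3% in si-SNHG17, and that of ABCC1 21.0% in si-SNHG17. Leaving out a library, the ABCC3 share was 51.3% to 51.9% in si-NC and 46.1% to 47.1% in si-SNHG17, and the ABCC1 share 13.9% to 15.7% and 22.6% to 24.7%. Counts of 27 to 80 per library limit ABCC10, and ABCB1 could not be tested.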

Other observations

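Cytochrome P450 genes, whose enzymes oxidise many of the drugs that the transporters carry, are given as a further list. Of 21 such genes, with their reductase POR, 10 were tested, 4 were higher and 3 lower, with a median log2 fold change of 0.09, where 19.6% of all genes were called in each direction. Without si-SNHG17 replicate 2 or si-NC replicate 1, 2 were higher. CYP1B1, which oxidises oestrogens and polycyclic hydrocarbons, rose from 135.4 ± 6.37 to 367.8 ± 10.7 CPM (SD, n = 3; log2 fold change 1.44, adjusted p = 1.06e-08 by edgeR). CYP3A5, of the main drug-oxidising subfamily, rose from 14.4 ± 1.38 to 22.8 ± 4.43 CPM (0.66). CYP24A1, which inactivates vitamin D, was the most counted of the list and fell from 3020 ± 213.7 to 2371 ± 130.2 CPM (-0.35). CYP4F11, a fatty acid hydroxylase, fell by 0.39 on the log2 scale.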
